A study of Rattus norvegicus with 38 samples.

Results

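The 3 globin IDs of the count table were followed through every library of a study of the hypertensive rat frontal brain. They were chosen by identifier: ENSRNOG00000029886 and ENSRNOG00000047321, both alpha globin genes (first and second alpha globin ID below), and ENSRNOG00000058105, the beta globin gene Hbb. All 3 were present, of 32883 IDs in all, and all 3 passed the filter on low counts in every fit. The libraries were 3' end RNA sequencing of laser-microdissected cortex, 19 of cortical blood vessels and 19 of clusters of cortical neurons, 1 of each per numbered animal. The rats were Wistar, used as the comparison strain, or SHRSP, the stroke-prone spontaneously hypertensive rat. Each was taken at an early stage (24 to 25 weeks of age) or a late stage (32 to 34 weeks). Each material had 4 late Wistar animals and 5 animals in each of the other groups, namely early Wistar, early SHRSP and late SHRSP. No treatment, transgene or sex is given in the labels. The table carries no gene names, so the cut material could not be checked against markers of vessel, neuron or other cells.

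Alpha and beta globin chains pair into hemoglobin, the oxygen carrier of red blood cells. Mammalian red cells lose their nucleus, and young ones still carry much globin mRNA. Globin transcripts in a tissue sample are therefore commonly read as a sign of blood in it, and cells of the vessel wall and some neurons have also been described to make globin mRNA at lower levels. In bulk samples such as these, more cells of a type and more RNA per cell cannot be told apart.

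The globin genes lie in 2 clusters, each with some near-identical copies. The RefSeq annotation of the rat assembly GRCr8 used here lists 3 alpha globin genes on chromosome 10 and 5 beta globin genes on chromosome 1. The stretches directly upstream of the start of 3 of them are shown because the alpha and beta IDs moved together in part and apart in part. These stretches also show how alike the alpha copies are upstream of the start. Each is 120 bases, read 5′ to 3′ on the minus strand. Capitals mark the letters CCAAT read on either strand (the CCAAT box of many promoters), the letters CACCC on either strand (a box found in beta globin promoters) and the letters ATAAA on either strand (taken as a TATA-like box).
Hba-a1, chr10:15842581-15842700: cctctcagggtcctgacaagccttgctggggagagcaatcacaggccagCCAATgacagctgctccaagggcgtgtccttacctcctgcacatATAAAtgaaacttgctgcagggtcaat
Hba-a2, chr10:15829139-15829258: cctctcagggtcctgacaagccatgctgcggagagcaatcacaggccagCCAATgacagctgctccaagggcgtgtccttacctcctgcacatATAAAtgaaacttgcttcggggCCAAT
Hbb, chr1:167663722-167663841: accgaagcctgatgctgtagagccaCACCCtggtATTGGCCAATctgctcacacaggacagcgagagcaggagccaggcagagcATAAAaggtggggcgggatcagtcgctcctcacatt

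The CCAAT and the ATAAA letters were found in all 3 stretches, those of CACCC in Hbb alone, and none of the matches overlapped. Of 33469 RefSeq promoters cut to the same 120 bases, CCAAT was in 19.87%, the ATAAA letters were in 21.49% and those of CACCC in 29.51%. A match is a run of letters, not a known site. Over the 300 bases around the start, Hba-a1 and Hba-a2 were 96% identical and Hba-a1 and Hba-a3 70.53%. Hbb was 65.05% to 66.56% identical to the other 4 beta globin genes, among which Hbb-b2 and Hbbl1 were 98.68% identical, and Hba-a1 and Hbb were 51.75% identical. The sources used here do not say which of the 3 alpha globin genes each alpha globin ID is. Reads of a 3' library fall at the other end of the transcript, where the copies were not compared. Counts of near-identical copies can be split between IDs or lost in counting, so the division of alpha counts between the 2 IDs is uncertain.

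The libraries held 1198386 to 4963429 counts. They fell into 2 sets by the share of counts on the most abundant ID, ENSRNOG00000043866, in the neuron library: 8 animals had at most 10.7% (low-share set) and 11 had at least 20.4% (high-share set). Every late animal was in the high-share set, as were only 2 early animals, Wistar 349 and SHRSP 383, so stage and library set coincided in all but 2 of the 19 animals. Vessel libraries detected 4104 to 11974 IDs and neuron libraries 9501 to 14305. Detection in vessels differed between the groups, with means of 6539 IDs in early SHRSP, 7867 in early Wistar, 10607 in late SHRSP and 11134 in late Wistar. The shares and folds below were not adjusted for the number of IDs detected. Levels below are CPM, a gene's counts scaled to the library's raw total. Fold changes come from edgeR fits scaled by trimmed mean of M-values (TMM), with p-values adjusted over all IDs tested. An SE of a fold is the log2 fold over the square root of its F statistic. How far it rests on the ID's own spread between animals or on a spread shared between IDs differed between IDs and fits. It is therefore not a plain measure of the spread between animals, and it can change where the fold does not.

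Globin counts, meaning the 3 followed IDs summed without other globin genes, made up 0.0850% to 1.181% of a vessel library and 0.00850% to 0.160% of a neuron library. The highest share was in the vessels of early SHRSP animal 380 (1.181%, 95% Wilson score interval 1.17% to 1.19%), and the lowest in the neurons of late Wistar animal 353 (0.00850%, 0.00751% to 0.00963%). These intervals cover counting error only. By group, vessels held 0.906% ± 0.185 (SD, n = 5) in early SHRSP, 0.603% ± 0.265 (n = 5) in late SHRSP, 0.330% ± 0.170 (n = 4) in late Wistar and 0.309% ± 0.301 (n = 5) in early Wistar. The 2 Wistar vessel groups did not differ beyond their spread. Neurons held 0.0864% ± 0.0501 (n = 5) in early SHRSP, 0.0396% ± 0.0150 (n = 5) in early Wistar, 0.0206% ± 0.00190 (n = 5) in late SHRSP and 0.0166% ± 0.00825 (n = 4) in late Wistar. The 2 late neuron groups overlapped, and late SHRSP neurons were the most even group.

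**Figure D1:**
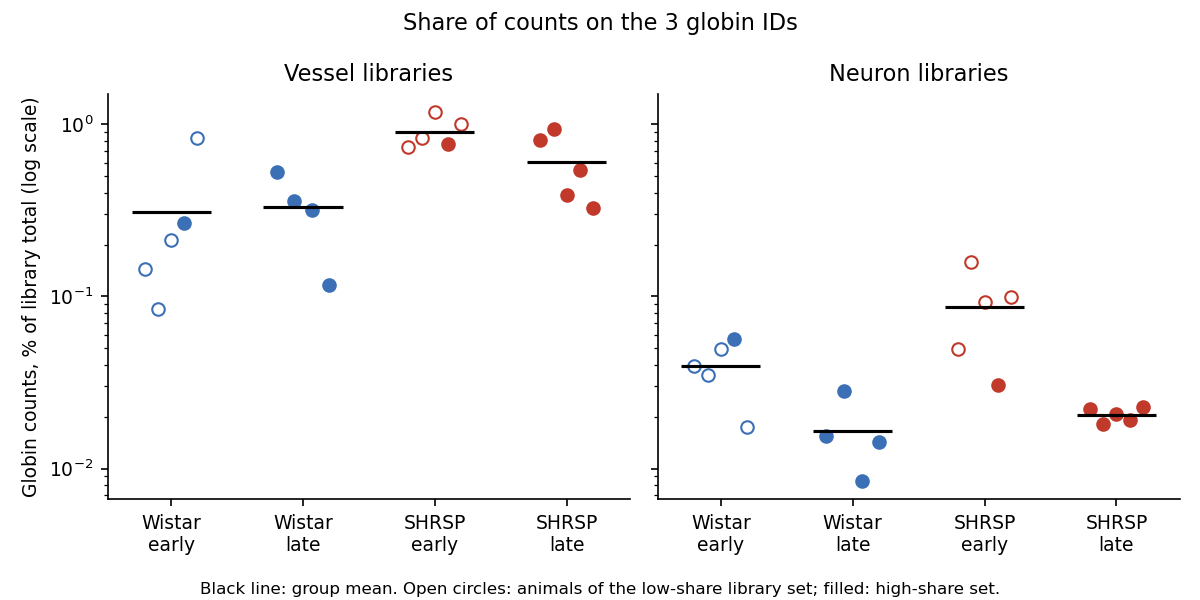
Share of each library's counts on the 3 globin IDs (percent, log scale), vessel libraries left and neuron libraries right, by strain and stage. Each circle is 1 animal, the black line the group mean; open circles are animals of the low-share library set. Vessel shares lie between 0.0850% and 1.181%, neuron shares between 0.00850% and 0.160%.

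Whether the globin IDs mark the vessel cuts was asked by setting the 2 libraries of each animal side by side. All 3 were higher in vessels than in neurons. In the vessel library of 19 of 19 animals the first alpha globin ID was higher, by 2.03- to 50.4-fold in CPM (median 14.5), and the second alpha globin ID in 19 of 19, by 2.70- to 56.6-fold (median 15.3). Hbb was higher in vessels in 18 of 19, by 2.09- to 268-fold (median 8.26 over those 18). The exception was early Wistar animal 343, whose vessel library held 0 Hbb counts where its neurons had 6.81 CPM. Taking 3 counts as the limit that a count of 0 allows (0.890 CPM), the neuron value was 7.65-fold that limit. The neuron value rests on 18 Hbb counts, and its own counting error is not part of this ratio. The same vessel library held 535 and 315 CPM of the alpha globin IDs, its group's lowest values.

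In edgeR's quasi-likelihood test with the animal as a block, the vessel level was 13.8-fold the neuron level for the first alpha globin ID (log2 3.79, SE 0.15, adjusted p = 4.97e-98) and 13.9-fold for the second (log2 3.80, SE 0.21, adjusted p = 1.95e-70). Hbb was 6.09-fold higher (log2 2.61, SE 0.35, adjusted p = 3.93e-11). All 3 members were called, where 50.5% of the 12117 IDs tested were called in either direction and 3.08% were called higher in vessels. Their median log2 fold was 3.79, against −1.63 over all IDs tested. Ordered by fold, the second alpha globin ID stood 79th, the first 81st and Hbb 215th of 12117. That placed all 3 among the more vessel-weighted IDs without leading them. All 3 remained called in each of the 29 alternatives run. The size of the adjusted p was not stable, and it rests on the fit's shared estimate of spread. When 1 animal was left out, the edgeR adjusted p reached 1.14e-07 for the first alpha globin ID, 1.18e-07 for the second and 0.00162 for Hbb.

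**Figure D2:**
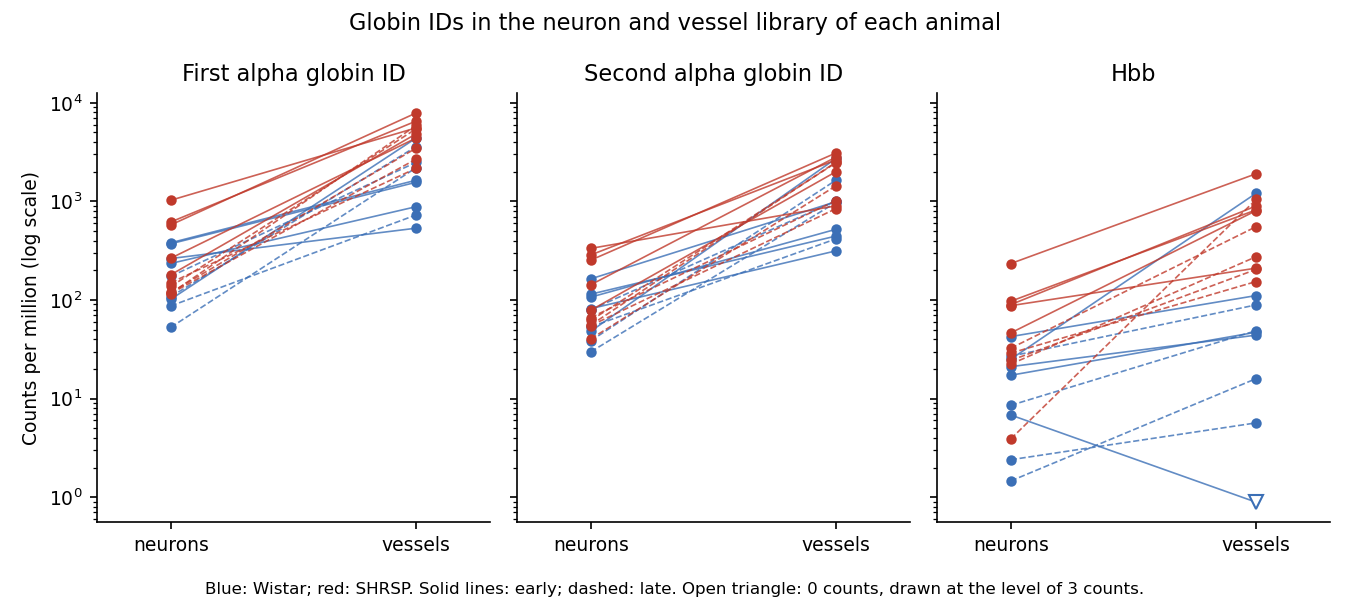
CPM (log scale) of each globin ID in the neuron and the vessel library of the same animal, joined by a line; blue is Wistar, red SHRSP, solid early, dashed late. All lines rise to the vessels except Hbb in early Wistar animal 343, whose 0 counts are drawn at the 3-count limit of 0.890 CPM.

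The size of the step from neurons to vessels varied between groups. For the first alpha globin ID it was log2 2.58 (SE 0.29) in early Wistar, 3.72 (SE 0.29) in early SHRSP, 4.17 (SE 0.33) in late Wistar and 4.68 (SE 0.30) in late SHRSP. The second alpha globin ID followed with 2.98, 3.51, 4.11 and 4.61. In early Wistar animals 340, 343, 346, 349 and 368, vessel over neuron CPM of the first alpha globin ID was 3.76, 2.03, 4.20, 4.31 and 43.1. The SE of the fit does not measure that spread. Both alpha globin IDs were called in all 4 groups (in early Wistar not in the high-share animals alone, adjusted p = 0.0797 and 0.0635), in which edgeR called 0.677% of IDs in early Wistar, 39.1% in early SHRSP, 0.371% in late Wistar and 0.883% in late SHRSP. Hbb had 1.51 (adjusted p = 0.211), 3.01 (adjusted p = 0.000278), 2.06 (adjusted p = 0.336) and 3.84 (adjusted p = 1.68e-05) in the same order, so it passed in both SHRSP groups and in neither Wistar group. Without animal 377 neither SHRSP call held (adjusted p = 0.0600 early and 0.0794 late), nor did the early one in high-share animals alone (adjusted p = 0.377). Without animal 379 the late Hbb fold was 3.18 and still passed. Tested as a difference between strains, the step did not pass for Hbb (log2 1.64 larger in SHRSP, SE 0.68, adjusted p = 0.724). It did not pass for the first (0.83, SE 0.28, adjusted p = 0.711) or second (0.52, SE 0.38, adjusted p = 0.895) alpha globin ID either, where edgeR called 0% of IDs (686 had an unadjusted p under 0.05; DESeq2 called 320 and limma voom 1).

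Tested between stages, the step was larger late than early for the first alpha globin ID by log2 1.28 (SE 0.28, edgeR adjusted p = 0.0298), where 0.0413% of IDs were called. The second alpha globin ID had 1.11 (SE 0.38, adjusted p = 0.0843) and Hbb 0.69 (SE 0.67, adjusted p = 0.502). The median over all IDs was 1.98, above that of each member. The call on the first alpha globin ID was kept in 6 of 27 alternatives and was lost with the library set as a term (log2 0.96, adjusted p = 1). Of the 19 fits that left out 1 animal it held in 5 (without animal 340, 349, 354, 368 or 384) and was lost in the others, with log2 folds of 1.03 to 1.377 there.

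Strain was compared within each stage, first in the vessels. In early vessels the first alpha globin ID stood at 4391, 5565, 7883, 4838 and 6520.04 CPM in SHRSP animals 374, 377, 380, 383 and 386. In early Wistar it stood at 883, 535, 1563, 1640.3 and 4387 CPM in animals 340, 343, 346, 349 and 368. The groups did not overlap, but the margin was 4391 against 4387 CPM, set by Wistar animal 368. How many of all IDs do not overlap between these groups was not counted. Group means were 5839 ± 1398 (SD, n = 5) and 1802 ± 1518 CPM (n = 5), a ratio of 3.24. The fitted fold was log2 1.56 (SE 0.49, edgeR adjusted p = 0.151), which did not pass, where 0.254% of the 11011 IDs tested were called.

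For the second alpha globin ID the same SHRSP animals had 2819.8, 901, 3102, 2004 and 2637 CPM and the Wistar animals 445, 315, 522, 994 and 2730.2. These ranges overlapped, with SHRSP animal 377 below Wistar animals 349 and 368 (log2 1.09, SE 0.31, edgeR adjusted p = 0.0967). Hbb was at 210.3, 1908, 820.3, 806 and 899 CPM in the SHRSP animals, while the Wistar animals had 111, 0, 47.1, 44.0 and 1211. Only Wistar animal 368 reached into the SHRSP range (log2 1.69, SE 1.296, edgeR adjusted p = 0.604), and without it the Hbb fold was log2 4.04 (edgeR adjusted p = 0.0522). The 3 members' median log2 fold was 1.56, against −0.20 over all IDs tested, and none was called.

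The call depended on which libraries were in the fit, on scaling and on the fit's estimate of spread. The first alpha globin ID passed edgeR's threshold without Wistar animal 368 (log2 2.09, adjusted p = 1.77e-10), without Wistar animal 343 (1.24, 0.00121) and without late Wistar animal 354 (1.61, 1.00e-05), and with DESeq2-type scaling, without the low-count filter and in the low-share animals alone. Animal 354 is in neither group compared. Without it the fold hardly moved, while the SE was 0.25 in place of 0.49. Without animal 343 the fold was lower and the SE was 0.24. These passes thus came with a smaller estimate of spread and not with a larger difference in level. The second alpha globin ID passed without animal 368 (1.72, adjusted p = 0.000767). The summed share of 334 other IDs, picked from these same libraries as higher in vessels than in neurons, moved with these levels. It was 8.71% ± 0.930 (SD, n = 5) in early SHRSP vessels and 3.69% ± 1.84 (n = 5) in early Wistar vessels, where animal 368 was again highest at 6.92%. The part of this share in the globin difference was not tested.

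In late vessels the alpha globin IDs of the strains overlapped and Hbb did not. The first alpha globin ID had 5441, 5884, 2682, 3468 and 2167 CPM in SHRSP animals 378, 379, 381, 382 and 384, and 3595, 2489, 2193 and 728 CPM in Wistar animals 350, 351, 353 and 354 (log2 0.65, SE 0.51). The second had 2506, 2469.6, 1019.7, 1442 and 845 CPM against 1645, 1011, 979 and 417 CPM (log2 0.55, SE 0.33). Hbb stood at 154, 1046, 204, 554 and 275 CPM in SHRSP, against 48.8, 89.2, 5.67 and 15.9 for Wistar. The lowest SHRSP vessel library thus lay above the highest Wistar one, and the means were 447 ± 369 (SD, n = 5) and 39.9 ± 37.7 CPM (n = 4). The share of all IDs without overlap between these groups was not counted. The fitted Hbb fold was log2 3.28 with an SE of 1.51 (edgeR unadjusted p = 0.0464, adjusted p = 1). Of the IDs tested there, edgeR called 0% (102 had an unadjusted p under 0.05; DESeq2 called 11 and limma voom 1). Without Wistar animal 351 the Hbb fold was 4.21 (edgeR adjusted p = 1). Without early Wistar animal 343, a library of neither group, the Hbb fold was 3.24 with an adjusted p of 0.00530 in the same edgeR test. The summed share of vessel-weighted IDs was 5.03% ± 1.36 (SD, n = 5) in late SHRSP and 4.09% ± 0.705 (n = 4) in late Wistar vessels.

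Neuron libraries showed the same order of strains early, at lower levels. The first alpha globin ID was at 265, 1027, 577, 180.2 and 619 CPM in early SHRSP, against 235, 263, 372, 381 and 102 for early Wistar (log2 0.92, SE 0.38, edgeR adjusted p = 0.473). The second had 143, 334, 254, 78.7 and 286 CPM against 115, 81.7, 107, 164 and 48.2 CPM (log2 1.03, SE 0.33, adjusted p = 0.299). Both alpha globin IDs overlapped between the strains. Hbb did not overlap, at 87.6, 234, 97.2, 46.4 and 89.8 CPM for the SHRSP and 42.6, 6.81, 17.3, 21.1 and 25.1 for the Wistar animals. The share of all IDs without such overlap was not counted. The Hbb fold was log2 2.28 (SE 0.58, edgeR adjusted p = 0.137), where 0.222% of the 10833 IDs tested were called. It passed with limma voom alone among the alternatives (adjusted p = 0.0411). The members' median was 1.03, against 0.01 over all IDs. In the 2 high-share animals alone, the alpha globin IDs were lower in SHRSP 383 than in Wistar 349 (log2 −1.11 and −1.09).

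In late neurons the strains lay close for the alpha globin IDs. SHRSP animals had 137, 117, 116, 119 and 149.9 CPM of the first, and Wistar animals 108, 174, 52.8 and 87.0 (log2 0.14, SE 0.41). The second had 55.8, 62.1, 66.4, 40.4 and 55.0 against 38.7, 79.9, 29.8 and 53.4 CPM (log2 0.01, SE 0.36). For Hbb they had 28.9, 3.91, 24.4, 32.5 and 22.4 CPM, and the Wistar animals 8.55, 26.9, 2.40 and 1.46, with 2 SHRSP libraries above every Wistar one (log2 1.10, SE 0.64, and 2.23 without Wistar animal 351). None passed edgeR's test (adjusted p = 0.9999 each), where 0.0369% of IDs were called. The Wistar values rest on as few as 6 Hbb counts, in animal 354.

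Stage was compared within each strain. The globin IDs fell in SHRSP neurons from the early to the late stage, and all 3 passed the test. The 5 late values of each ID lay below the 5 early ones. The share of all IDs that separate in this way was not counted. The first alpha globin ID had a mean of 534 ± 335 CPM early and 128 ± 15.0 late, the second 219 ± 105 and 55.9 ± 9.87, and Hbb 111 ± 71.7 and 22.4 ± 11.1 (SD, n = 5 each). In edgeR's test the first alpha globin ID fell by 1.77 on the log2 scale (SE 0.39, adjusted p = 0.0120), the second fell by 1.67 (SE 0.34, adjusted p = 0.00691) and Hbb fell by 2.03 (SE 0.57, adjusted p = 0.0323). Of the 10833 IDs tested, 8.85% were called in either direction and 2.73% were called lower. That share rests on 959 IDs, a number that ran from 180 (without animal 379) to 1951 (without animal 343) when 1 animal was left out and was 0 with the library set as a term. The members' median was −1.77, against −0.08 over all IDs.

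The share of the most abundant ID moved with this fall: it was 9.13% ± 7.10 (SD, n = 5) in early and 23.1% ± 2.63 (n = 5) in late SHRSP neurons. With the library set as a term no member passed (log2 −1.72, −1.82 and −1.58, edgeR adjusted p = 0.976 each). In the high-share animals alone, where animal 383 is the only early SHRSP library, the log2 folds were −0.42, −0.42 and −0.98. Animal 383 had the lowest early SHRSP neuron value of each ID, and stage and library set cannot be told apart here. The Hbb call was also lost without any 1 of SHRSP animals 377, 378, 379, 380, 384 and 386, with log2 folds of −1.57 to −2.11 there and adjusted p of 0.0529 to 0.109. The summed share of vessel-weighted IDs in SHRSP neurons was 1.31% ± 0.200 (n = 5) early and 0.834% ± 0.0888 (n = 5) late; its part in the fall was not tested.

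Wistar neurons had lower late means of all 3 IDs, and no member passed. The first alpha globin ID had a mean of 270.4 ± 114 CPM early (SD, n = 5) and 105 ± 51.0 late (n = 4), the second 103 ± 42.7 and 50.4 ± 21.9, and Hbb 22.6 ± 13.1 and 9.84 ± 11.8. The log2 folds were −0.99 (SE 0.41), −0.65 (SE 0.36) and −0.84 (SE 0.64), with edgeR adjusted p of 0.129, 0.244 and 0.412, where 9.31% of IDs were called. Without late animal 351 the Hbb fold was −1.97 (edgeR adjusted p = 0.0654). The most abundant ID took 11.2% ± 7.91 of early and 32.5% ± 5.48 of late Wistar neuron counts. Early Wistar animal 368 was low among early neurons, at 102 CPM of the first alpha globin ID, while its vessel library was the highest of its group. Late minus early, the strain difference in neurons moved by log2 −0.78, −1.02 and −1.19 (SE 0.56, 0.48 and 0.84), none of which passed. There edgeR called 0% of IDs, as did DESeq2 and limma voom, while 254 had an unadjusted edgeR p under 0.05. Without animal 351 the Hbb value was −0.046.

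In vessels no member passed edgeR's test for stage, which does not show that the levels were alike. In data simulated for the early strain comparison in vessels, no ID given a changed level was called at this threshold. In SHRSP vessels the log2 folds were −0.59 (SE 0.48), −0.52 (SE 0.31) and −1.04 (SE 1.27), with adjusted p of 0.703, 0.508 and 0.815. In Wistar vessels they were 0.32 (SE 0.50), 0.02 (SE 0.33) and −2.62 (SE 1.46), with adjusted p = 1 each. In both comparisons 0.00908% of IDs were called. The Hbb value of Wistar vessels rests on animal 368: without it the log2 fold was −0.22. Without animal 351 it was −3.40 (adjusted p = 1), and without animal 343 it was −2.83 with an edgeR adjusted p of 0.0287. The strain difference in vessels changed with stage by −0.91, −0.54 and 1.58 (SE 0.69, 0.45 and 1.86), none called, where 0.00908% of IDs were called, and the Hbb value was −0.76 without animal 368 and 2.42 without animal 351.

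**Figure D3:**
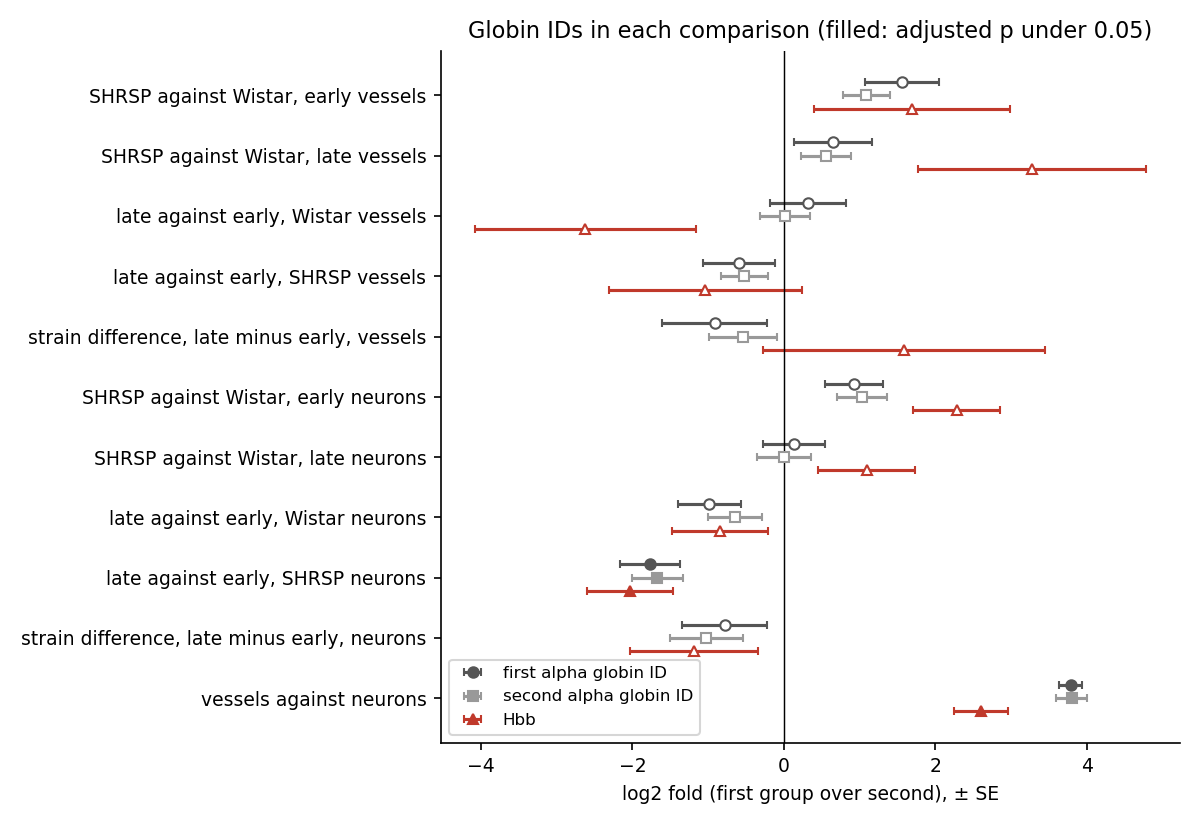
Fitted log2 folds of the 3 globin IDs (points, ± 1 SE) in each comparison, first group over second; filled points have an edgeR adjusted p under 0.05. Of the 11 comparisons drawn, the vessel to neuron comparison and the stage comparison in SHRSP neurons hold filled points, and the Hbb bars in vessels are the widest.

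Hbb and the alpha globin IDs did not move in a fixed proportion. A 3' library gives a count that does not grow with transcript length, so counts were set against each other directly, as Hbb counts per 100 counts of both alpha globin IDs. The other beta globin genes of the cluster were not followed. The ratio is therefore of Hbb alone and not of all beta globin to alpha globin. No test is given for this ratio. In vessels it ran 8.35, 0, 2.26, 1.67 and 17.0 in early Wistar animals 340, 343, 346, 349 and 368, and 0.932, 2.55, 0.179 and 1.39 in late Wistar animals 350, 351, 353 and 354. It ran 2.92, 29.5, 7.47, 11.8 and 9.81 in early SHRSP animals 374, 377, 380, 383 and 386, and 1.94, 12.5, 5.52, 11.3 and 9.12 in late SHRSP animals 378, 379, 381, 382 and 384. The late strains thus nearly separated, with 4 of 5 late SHRSP vessel libraries above every late Wistar one. The means there were 8.08 ± 4.34 (SD, n = 5) and 1.26 ± 0.993 (n = 4).

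In neurons the ratio averaged 15.6 ± 4.74 (SD, n = 5) in early SHRSP, 12.4 ± 6.66 (n = 5) in late SHRSP, 7.68 ± 6.45 (n = 5) in early Wistar and 5.10 ± 4.17 (n = 4) in late Wistar. It was higher in vessels than in neurons in only 4 of the 19 animals, although every alpha globin ID and nearly every Hbb level was higher in vessels. Across the 19 animals the ratio in vessels and that in neurons had a Pearson r of 0.50 and a Spearman rho of 0.58, given as a description. Animal 379, late SHRSP, had 12.5 in vessels and 2.18 in neurons, and animal 374, early SHRSP, had 2.92 and 21.5, so the materials of 1 animal could differ in either direction.

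**Figure D4:**
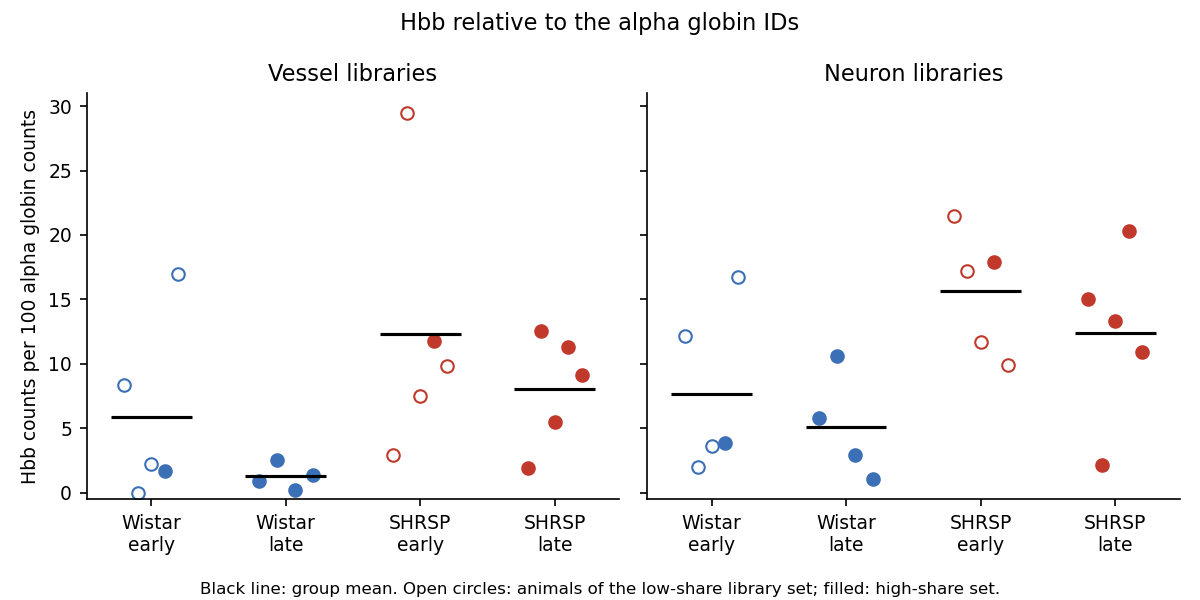
Hbb counts per 100 counts of the 2 alpha globin IDs in vessel (left) and neuron (right) libraries, by strain and stage; each circle is 1 animal, the black line the group mean, and open circles are the low-share library set. Late Wistar vessels lie between 0.179 and 2.55, and the highest value is 29.5 in the vessels of early SHRSP animal 377.

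The division between the alpha globin IDs was steadier. The second alpha globin ID gave 45.4 ± 11.6 counts per 100 of the first over the 19 vessel libraries and 44.2 ± 9.48 over the 19 neuron libraries (SD). The lowest ratio was 16.2, in the vessels of early SHRSP animal 377, where Hbb per alpha count was highest. That library detected the fewest IDs of all, 4104. The highest was 64.2, in the vessels of animal 374. Whether such differences come from the genes or from how copies were counted was not tested.

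Across animals, Hbb was higher where the alpha globin IDs of the same material were higher, less clearly so within groups. In vessels, Hbb and the first alpha globin ID had r = 0.80 and rho = 0.80 (n = 19, permutation test, two-sided p = 6e-05 and 9e-05, adjusted over the 11 relations computed 0.00066 and 0.00099). Without the 2 animals farthest from the median of the first alpha globin ID, r was 0.66. In neurons the same pair had r = 0.74 and rho = 0.65 (permutation p = 0.00037 and 0.00328, adjusted 0.00132 and 0.00722), with r = 0.61 without 2 animals. With the group means subtracted, vessels had r = 0.66 and rho = 0.48 (adjusted permutation p = 0.0333 and 0.210) and neurons r = 0.43 and rho = 0.43 (adjusted permutation p = 0.147 and 0.241). Permutations after subtracting group means, here and below, did not allow for the means removed. Their p-values are therefore too low, and the 0.0333 is not a secure pass. Within the library sets, r was 0.68 in the 11 high-share and 0.86 in the 8 low-share animals for vessels, and 0.64 and 0.63 for neurons. Hbb and the second alpha globin ID had r = 0.68 and rho = 0.61 in vessels (permutation p = 0.00073 and 0.00579, adjusted 0.00161 and 0.00828) and r = 0.72 and rho = 0.62 in neurons (permutation p = 0.00047 and 0.00602, adjusted 0.00132 and 0.00828). With group means subtracted these fell short of the threshold, at r = 0.50 and 0.34 (adjusted permutation p = 0.147 and 0.235). Without 2 animals they were 0.54 and 0.59, within the high-share set 0.61 and 0.42, and within the low-share set 0.71 and 0.81. All of these values share the library total as their denominator.

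Hbb was also followed from the vessel to the neuron library of the same animal. It had r = 0.61 and rho = 0.65 (n = 19, permutation p = 0.00537 and 0.00311, adjusted 0.00738 and 0.00722). Without 2 animals r was 0.51, which did not pass (adjusted permutation p = 0.0513). With group means subtracted r was 0.43 (adjusted permutation p = 0.147). Within the high-share and low-share sets it was 0.59 and 0.81 (adjusted permutation p = 0.102 and 0.0425). The alpha globin IDs had r = 0.21 and 0.11 (permutation p = 0.384 and 0.660, adjusted 0.423 and 0.660) with rho = 0.24 and 0.06 (permutation p = 0.316 and 0.792, adjusted 0.347 and 0.792). The difference between the Hbb and alpha values was not tested.

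**Figure D5:**
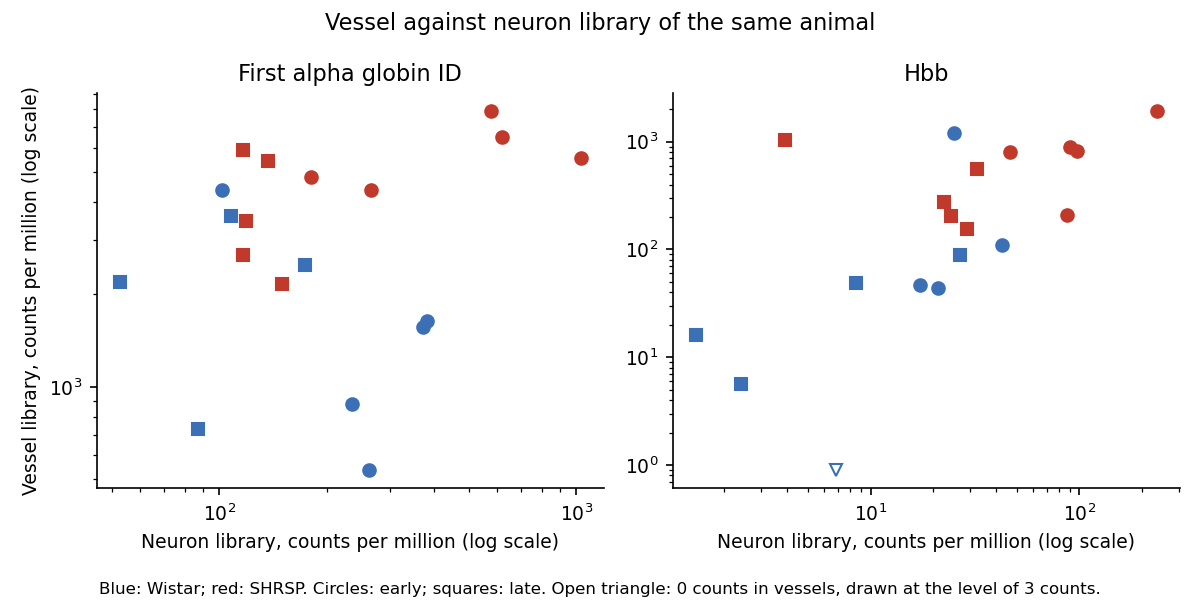
Vessel against neuron CPM of the same animal (both log scales) for the first alpha globin ID (left) and Hbb (right); blue is Wistar, red SHRSP, circles early, squares late. Hbb spreads along the diagonal (r = 0.61) and the first alpha globin ID does so less (r = 0.21); the open triangle is animal 343, with 0 Hbb counts in vessels.

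Pooled over the groups, measures of the library itself moved with Hbb as well. The 334 vessel-weighted IDs were picked from these same libraries, as higher in vessels, which the members also were. Without gene names, other globin or red cell IDs could not be taken out of them. They also share the library total with Hbb, so their relation with it is not a separate sign. Against the summed share of the 334 other vessel-weighted IDs, Hbb had r = 0.63 and rho = 0.72 in vessels (permutation p = 0.00207 and 0.00085, adjusted 0.00379 and 0.00467) and r = 0.72 and rho = 0.63 in neurons (permutation p = 0.00048 and 0.00457, adjusted 0.00132 and 0.00828). Without 2 animals r was 0.72 and 0.67, and both passed. With group means subtracted r was 0.37 and 0.44, and neither passed (adjusted permutation p = 0.223 and 0.147). Within the high-share set r was 0.57 and 0.80 (adjusted permutation p = 0.111 and 0.0227). Within the low-share set it was 0.67 and 0.32 (adjusted permutation p = 0.0701 and 0.528). Against the share of the most abundant ID, Hbb had r = −0.63 and rho = −0.68 in neurons (permutation p = 0.00314 and 0.00186, adjusted 0.00493 and 0.00682). That relation had r = −0.65 without 2 animals, −0.84 within the high-share and −0.28 within the low-share set, and with group means subtracted −0.27 (adjusted permutation p = 0.334), which did not pass. In vessels it was r = −0.34 and rho = −0.49 (permutation p = 0.151 and 0.0333, adjusted 0.184 and 0.0407), and r = −0.0016 with group means subtracted (adjusted permutation p = 0.995).

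The IDs whose pattern over the 19 libraries was most like that of Hbb, after subtracting group means, were not the alpha globin IDs. In vessels they were ENSRNOG00000020246 (r = 0.87, 0.593 to 559 CPM) and ENSRNOG00000020676 (r = 0.87, 0 to 661 CPM), both among the IDs higher in vessels. In neurons they were ENSRNOG00000015493 (r = 0.92, 6.05 to 50.9 CPM) and ENSRNOG00000010171 (r = 0.86, 26.6 to 153 CPM). By this likeness the first alpha globin ID ranked 90th and the second 601st of 11010 IDs in vessels, and 2379th and 3536th of 10832 in neurons. The top IDs were picked as the highest r among that many IDs over 19 libraries. A high r is thus set by the choice, and no test is given for it. In vessels, r also includes libraries at or near 0 counts, as for Hbb in animal 343. The files do not pair these IDs with gene names.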

How the data were processed

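The values were raw counts, 1 whole number per library for each Ensembl ID, in 1 table that the authors deposited for 38 libraries, made with the PicoPure RNA kit and the QuantSeq 3' forward kit per the labels' protocols. Per the submitters' processing notes the tools were STAR 2.5.3a, HTSeq 0.6.1, FastQC 0.11.5 and DESeq2 1.18.1. Not given in the sources used here are the genome build, the annotation, the strand setting and how reads with several matches were treated. The table's 0 matches to the GRCr8 RefSeq table meant that lists of other globin, red cell and cell type marker genes, given by symbol, could not be applied. The members and lists were chosen with earlier results of these data known.

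edgeR 4.0.16 (R 4.3.3; TMM, filterByExpr, robust quasi-likelihood F test, two-sided, Benjamini-Hochberg) was fitted to the 19 libraries of a material with 4 groups, or to all 38 with the animal as a block and 1 vessel term per group; a gene was called at an adjusted p under 0.05. A log2 CPM for relations used a prior of 0.5 counts; permutation tests drew 100000 resamples, or all orders for 8 animals. Vessel-weighted IDs were called higher in vessels with a log2 fold of at least 1, without the members. Alternatives were DESeq2 1.42.0, limma 3.58.1 voom, other scaling, filters, totals and sample sets. Genes of like pattern were the 2 IDs per material with the highest r with Hbb.

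The animal number in the sample titles was read as the animal, which pairs vessel and neuron libraries. Over 7960 IDs, the deviations of an animal's 2 libraries from their group means correlated by −0.178 to 0.364 (median 0.0144). No 2 libraries of a group agreed within sampling noise (chi-square per degree of freedom of at least 4.88 over 72 pairs). The labels do not say whether animals came from separate litters or runs. Scripts were tested on simulated data: fitted folds came out near those put in, but at the threshold used no changed ID was called in early vessels by strain, while most of the more strongly changed IDs were called in early neurons. A vessel result that did not pass is therefore no sign of equal levels.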

Additional observations from a re-analysis of the deposited data

Results flagged for a closer look

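Of 48 sets of values within a group checked for a library apart from the rest, 5 held one. The cutoffs give about 1 in 20 by chance only for separate sets of normally distributed values. These sets reuse the same libraries and were not log-scaled, so that rate need not hold here. In early Wistar vessels, animal 368 stood apart as the highest of 5 in the first alpha globin ID (4387 CPM), the second (2730 CPM), Hbb (1211 CPM) and the globin share (0.833%). These 4 values come from 1 library and are not separate signs. In early SHRSP neurons, animal 377 stood apart as the highest in Hbb (234.3 CPM).

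The step from neurons to vessels of the first alpha globin ID differed between the stages, late minus early, by log2 1.28 (edgeR adjusted p = 0.0298), the difference itself being tested. In the 27 alternatives run for it, adjusted p lay between 0.000196 and 1.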

How the results depend on the processing

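The vessel over neuron result kept its direction and call in all 29 alternatives, without the replicate block too (log2 3.84 for the first alpha globin ID, 3.93 for the second and 3.23 for Hbb). In SHRSP neurons the fall with stage lost its call with the library set as a term (log2 −1.72, −1.82 and −1.58) and in high-share animals alone (−0.42, −0.42 and −0.98), and for Hbb without the low-count filter (−1.99). Leaving out 1 animal gave −2.22 to −1.57 for that Hbb value. The cause was not tested.

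The strain difference in early vessels became called for the first alpha globin ID with DESeq2-type scaling (log2 1.70), without the filter (1.52) and in low-share animals alone (1.62), and ran from 1.24 to 2.09 without 1 animal; the second ran from 0.77 to 1.72. Hbb in early neurons became called with limma voom (2.31). Without 1 animal, Hbb ran from 1.20 to 4.04 for strain in early vessels, from 0.73 to 2.23 for strain in late neurons, from −1.97 to −0.47 for stage in Wistar neurons, from −1.54 to −0.046 for its change in neurons, from 2.74 to 4.21 for strain in late vessels and from −3.40 to −0.22 for stage in Wistar vessels.

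Values near 0 changed sign without gaining a call. The second alpha globin ID in Wistar vessels by stage was −0.045 with the set as a term, −0.38 in high-share animals and −0.18 to 0.71 without 1 animal. In late neurons by strain, leaving out 1 animal gave −0.061 to 0.39 for the first alpha globin ID and −0.16 to 0.22 for the second. In high-share animals alone, early neurons by strain were −1.11 and −1.09 for the alpha globin IDs. There the change of the strain difference was 1.25 and 1.09 in neurons, 0.21 for the second alpha globin ID in vessels and −0.25 for Hbb in vessels. That Hbb value was −1.22 with limma voom and −0.76 to 2.42 without 1 animal. The vessel step of Hbb, late minus early, was −0.34 without the block.

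Between the materials, r of the first alpha globin ID was −0.084 with group means subtracted and −0.015 without 2 animals, and r of the second was −0.30 with group means subtracted and −0.024 in high-share animals. Early vessels by strain called 28 IDs with edgeR (24 higher, 4 lower), 55 with DESeq2-type scaling (49, 6), 486 with DESeq2 (152, 334) and 136 with limma voom (18, 118), and from 7 (without animal 340) to 1137 (without animal 383; 133, 1004) without 1 animal. The low-share set holds no late animal, so stage and late comparisons could not be run within it. With the most abundant ID left out of the totals, the mean globin share of late SHRSP neurons was 0.0268%. Depth limits Hbb most, at 0 to 4242 counts per library.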
